A study of Mus musculus with 6 samples.

Results

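The guanylate-binding proteins (GBPs) and immunity-related GTPases (IRGs) are large interferon-inducible GTPases, and 10 of their genes were followed here in RNA sequencing of mouse CD4+ T cells with and without depletion of Wtap. They were taken by name, as 7 GBP genes (Gbp2, Gbp3, Gbp4, Gbp5, Gbp6, Gbp7 and Gbp9) and 3 IRG genes (Irgm1, Igtp and Iigp1), out of 55177 genes with an entry in the transcript tables. The tested table held 17610 genes after a filter on low counts, and all 10 passed it. Of the 6 libraries 3 are labelled Wtap KO and 3 come from wild-type cells (WT), all from C57BL/6J mice. One protocol is given for all 6 libraries. Cells received 4-hydroxytamoxifen at 1 µM for 24 h, described as the step that depletes Wtap, and were then activated for 40 to 48 h on anti-CD3 at 1 µg/mL with anti-CD28 at 2.5 µg/mL. Activation was steered toward the Th1 type by IL-12 (10 ng/mL) and an antibody that blocks IL-4 (10 µg/mL), and cells were expanded in IL-2 (200 IU/mL) until day 4. The age and sex of the mice, the Cre driver, whether the WT cells had Cre and which stretch of Wtap is lost are not known from the labels.

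Interferon-gamma, the main cytokine of Th1 cells, switches on GBP and IRG genes through factors that include IRF1, and type I interferons reach many of the same genes through STAT2 and IRF9. GBP and IRG proteins assemble on the membranes around intracellular parasites and bacteria and help to open them, while the regulatory IRG proteins hold the effector IRG proteins in check on the cell's own membranes. Loss of the regulatory Irgm1 in mice is known for the death of CD4+ T cells exposed to interferon-gamma. Wtap is the subunit that anchors the complex which places N6-methyladenosine on messenger RNA.

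No label ties a library to an animal of its own, so the p-values here measure the spread between these libraries, which may be technical in part. A library held 32363139 to 44039467 estimated counts, and no member had under 788 estimated counts in a library. Wtap itself had a log2 fold change of 0.16 ± 0.10 (SE; edgeR's quasi-likelihood test, adjusted p = 0.371), and its levels of 114, 120 and 119 CPM in Wtap KO overlapped the 114, 106 and 94.4 CPM of WT. Its summed reads thus do not check the deletion. The library Wtap KO 3 stood apart in sex-linked genes, as its Y-linked Kdm5d reached 63.3 CPM, where the other 5 had 2.44 to 3.54, and its Xist 3.80 CPM, where they had 1980 to 4448. CPM is the read count of a gene scaled to a common library size, with allowance for library composition. In sequencing of bulk cells, fewer cells that express a gene and less RNA per cell cannot be told apart.

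Promoters of 6 of the 10 members carried letters read by interferon-activated factors. They are shown because these 6 share them and the rule that picked the members did not use them. RefSeq promoters (250 bases before to 50 after a start site, GRCm38.p6) were given for 6 of the 10 members, namely Gbp2, Gbp3, Gbp5, Gbp7, Irgm1 and Igtp, with 7 promoters since Gbp3 had a pair. Gbp4, Gbp6, Gbp9 and Iigp1 were the others. Both strands were searched for GAAA, any 2 bases and GAAA, the core of the interferon-stimulated response element bound by IRF factors. This motif lay in 6 of the 7 promoters, in all 6 genes, against 3.44% of all 32851 promoters in the table. Among 11 promoters of other family genes, 7 held it. Capitals mark the matches, and a match on the other strand reads TTTC, 2 bases and TTTC.
Gbp5: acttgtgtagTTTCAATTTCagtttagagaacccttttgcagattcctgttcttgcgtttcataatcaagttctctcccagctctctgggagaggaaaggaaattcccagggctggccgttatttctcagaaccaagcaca
Gbp7: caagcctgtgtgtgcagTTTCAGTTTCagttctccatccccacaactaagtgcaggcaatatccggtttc
Gbp3: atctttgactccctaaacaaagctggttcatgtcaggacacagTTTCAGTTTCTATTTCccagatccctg
Irgm1: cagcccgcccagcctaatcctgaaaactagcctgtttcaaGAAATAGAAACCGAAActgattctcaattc
Igtp: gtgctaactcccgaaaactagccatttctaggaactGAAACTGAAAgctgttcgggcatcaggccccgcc
The stretches lie on the plus strand of chromosome 3 for Gbp5 (chr3:142496759-142496899), Gbp7 (chr3:142530266-142530335) and Gbp3 (chr3:142559956-142560025). That of Irgm1 lies on the minus strand (chr11:48871421-48871490) and that of Igtp on the plus strand (chr11:58199486-58199555). In Igtp the response element lay at bases -34 to -25 from the start site. Gbp3 and Irgm1 each held a pair of response elements that overlap by a shared GAAA. Gbp7 held its response element at -53 to -44, and Gbp5, farther from the start site, at -165 to -156. The match in Gbp2, TTTCACTTTC, lay at -59 to -50. A match describes letters in the window and is not evidence that a factor bound there.

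In Wtap KO cells 1 of the 10 members passed the test, Gbp9, which rose 1.71-fold, and 0 fell. Over all tested genes 9.23% were called (1626 of 17610), 5.75% higher and 3.49% lower, so the share of members called was near the background. At an unadjusted p under 0.05 edgeR gave 3 members higher and 1 lower, and DESeq2 called 1 higher (Gbp9) and 1 lower (Gbp7), against 14.0% of all genes called by DESeq2. The share of all genes at that unadjusted p was not counted, and it exceeds the 9.23% called after adjustment. Unadjusted counts here and in the lists below are thus not set against a background. Leaving out Wtap KO 3 gave 0 calls among the 10, as did leaving out Wtap KO 1, Wtap KO 2 or WT 2. Fewer genes were called over the whole table in these fits, 704, 397, 361 and 565 in that order, against 1626. The log2 fold changes of the members ran in both directions, 6 positive and 4 negative, with a median of 0.29 against -0.0006 over all genes tested. Without WT 3 the median of the members was 0.10, against 0.0072 over all genes tested. In 5 of the 10 the groups did not overlap, with Gbp2, Gbp4, Gbp9 and Irgm1 higher and Gbp7 lower in all 3 Wtap KO libraries, and groups did not overlap in 32.7% of all genes.

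**Figure D1:**
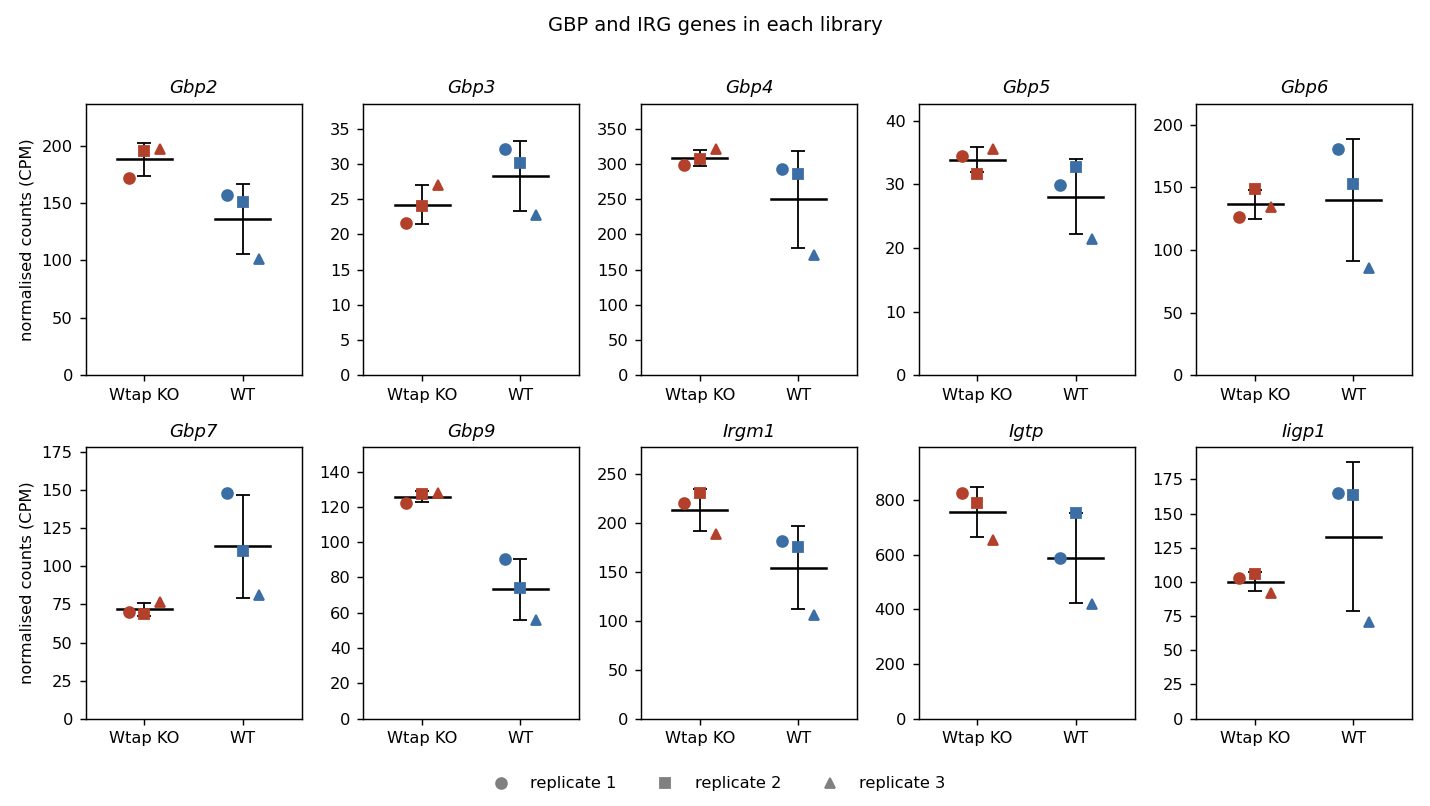
Level of each of the 10 genes in each library, in CPM (normalised counts) on a linear axis from 0, with Wtap KO in red and WT in blue. Horizontal bars are group means, error bars are SD (n = 3 each), and marker shapes are replicate numbers, which do not pair the groups. WT 3 (blue triangle) was the lowest WT library in 10 of 10 genes.

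Of the GBP genes on chromosome 3, Gbp2 lay higher and Gbp7 lower in all Wtap KO libraries, and neither passed the test. Gbp2 (142620602 to 142638008, plus strand, GRCm38 as for all gene positions here), which is recruited to the vacuole of Toxoplasma in mouse cells, was at 172, 196 and 197 CPM in Wtap KO, against 157, 151 and 101 CPM in WT. Each Wtap KO library lay above each WT library, with a log2 fold change of 0.47 ± 0.16 that did not pass (adjusted p = 0.112). It passed without WT 1 (log2 fold change 0.58, adjusted p = 0.0482, in a range of 0.0482 to 0.292 over 20 alternatives), and without WT 3 it was 0.29.

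Gbp7 (142530342 to 142550149, plus strand), linked in mice to assembly of the phagocyte NADPH oxidase, was at 70.1, 68.6 and 76.8 CPM in Wtap KO, against 149, 110 and 81.1 CPM in WT. All Wtap KO libraries lay below all WT libraries, and WT 3 came closest to them. The log2 fold change of -0.66 ± 0.19 missed the threshold (adjusted p = 0.0696), but passed without WT 3 (-0.85, adjusted p = 0.0107), with DESeq2 (adjusted p = 0.0131) and with an offset for GC content (-0.52, adjusted p = 0.0459). Over 21 alternatives its adjusted p ran from 0.0107 to 0.366. In TPM, which divides counts by transcript length, the groups met, with 13.3, 12.6 and 14.6 TPM in Wtap KO against 27.0, 19.9 and 14.2 TPM in WT.

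The other members on chromosome 3 were low and overlapped between groups. Gbp3 (142560026 to 142573209) was at 21.6, 24.0 and 27.1 CPM in Wtap KO, against 32.1, 30.2 and 22.7 CPM in WT (log2 fold change -0.23 ± 0.16, adjusted p = 0.413). Gbp5 (142493978 to 142522344), which promotes inflammasome assembly in mouse macrophages, was at 34.4, 31.7 and 35.5 CPM in Wtap KO, against 30.0, 32.7 and 21.5 CPM in WT. WT 2 lay within the Wtap KO range of Gbp5, and the log2 fold change was 0.27 ± 0.16 (adjusted p = 0.329), and 0.11 without WT 3.

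On chromosome 5, Gbp9 rose, while its neighbours Gbp4 and Gbp6 did not pass. Gbp9 (105077630 to 105139539, minus strand), another GBP found on the Toxoplasma vacuole in mouse cells, was at 122, 127 and 128 CPM in Wtap KO, against 90.3, 74.2 and 55.7 CPM in WT. The Wtap KO libraries were close to each other and all above WT 1, the highest WT library. Its log2 fold change was 0.78 ± 0.16 (adjusted p = 0.0232). The direction held whichever library was left out, with values between 0.61 and 0.95. The call ended without WT 2 (adjusted p = 0.0823), Wtap KO 1 (0.0881), Wtap KO 2 (0.0971) or Wtap KO 3 (0.0792, log2 fold change 0.76), each a fit with fewer libraries in 1 group. Over 20 alternatives the adjusted p ran from 0.000593 to 0.112.

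Gbp4 (105115767 to 105139586, minus strand) was at 298, 307 and 321 CPM in Wtap KO, against 292, 286 and 170 CPM in WT. The groups did not overlap, though WT 1 and WT 2 lay just under the Wtap KO libraries and WT 3 far under them. The log2 fold change was 0.31 ± 0.19 (adjusted p = 0.349), and 0.09 without WT 3. Gbp6 (105270702 to 105293698, minus strand), also recruited to the Toxoplasma vacuole in mouse cells, was at 126, 149 and 134 CPM in Wtap KO, against 181, 153 and 85.9 CPM in WT. The Wtap KO libraries lay inside the WT range, with a log2 fold change of -0.03 ± 0.23 (adjusted p = 0.949) whose sign turned under 10 of 21 alternatives. No other member turned its sign under an alternative.

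Among the IRG genes, the regulatory Irgm1 and Igtp had positive log2 fold changes and the effector Iigp1 a negative one, and edgeR called 0 of the 3, as did DESeq2, with 1 higher at an unadjusted p under 0.05. Irgm1 (chromosome 11, 48861968 to 48871683, minus strand) was at 220, 231 and 189 CPM in Wtap KO, against 181, 175 and 105 CPM in WT. Its groups did not overlap, with Wtap KO 3 just above WT 1 (log2 fold change 0.47 ± 0.20, adjusted p = 0.169, and 0.26 without WT 3). Igtp (chromosome 11, 58199556 to 58207591, plus strand), a regulatory IRG of the endoplasmic reticulum also called Irgm3, was at 827, 791 and 652 CPM in Wtap KO, against 589, 751 and 420 CPM in WT. WT 2 lay above Wtap KO 3, and the log2 fold change was 0.37 ± 0.20 (adjusted p = 0.277), and 0.17 without WT 3.

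Iigp1 (chromosome 18, 60376027 to 60392634, plus strand), an effector IRG that coats the vacuole, was at 103, 106 and 92.1 CPM in Wtap KO, against 165, 164 and 70.6 CPM in WT. WT 1 and WT 2 lay above all Wtap KO libraries and WT 3 below them. The log2 fold change was -0.41 ± 0.29 (adjusted p = 0.415), and without WT 3 it was -0.72 (adjusted p = 0.00769, in a range of 0.00769 to 0.769 over 20 alternatives), which passed. Without WT 3 the test thus called 3 of the 10 members, Gbp9 higher and Gbp7 and Iigp1 lower. More genes were called in that fit over the whole table too, 1976 against 1626 with all libraries.

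The levels of the members spread more among WT than among Wtap KO libraries. The SD of log2 CPM over 3 libraries had a median of 0.11 over the 10 members in Wtap KO, against 0.43 in WT, and was larger in WT for 10 of 10. Over all genes tested the medians were 0.14 in Wtap KO and 0.20 in WT. WT 3 was the lowest of all 6 libraries for 8 of 10 members and the lowest WT library for 10 of 10, and WT 1 was the highest WT library for 8.

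Levels per length were ordered much alike in both groups. Igtp led, with 467, 421 and 366 TPM in Wtap KO against 310, 399 and 216 TPM in WT. In Wtap KO the order went on with Gbp4 at 146 ± 5.28 TPM (SD, n = 3), Irgm1 at 106 ± 8.87, Gbp2 at 79.0 ± 5.72, Gbp6 at 42.0 ± 2.09, Iigp1 at 39.3 ± 2.35, Gbp9 at 26.5 ± 0.988, Gbp7 at 13.5 ± 1.03, Gbp5 at 11.4 ± 1.12 and Gbp3 at 10.1 ± 1.09 TPM. Neighbours in this order overlapped between libraries only for Gbp6 with Iigp1 and for Gbp5 with Gbp3. In WT, Igtp stood apart from Gbp4, and all further neighbours overlapped, in the order Gbp4, Irgm1, Gbp2, Iigp1, Gbp6, Gbp7, Gbp9, Gbp3 and Gbp5. Gbp9 stood above Gbp7 in Wtap KO, and in WT it averaged less, at 15.0 ± 3.76 TPM where Gbp7 had 20.4 ± 6.40 TPM.

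Summed over the 10 members, the level was 941, 894 and 840 TPM in Wtap KO, against 760, 830 and 461 TPM in WT. All Wtap KO libraries lay above all WT libraries, a ratio of 1.3 (exact permutation test, two-sided, p = 0.1, the smallest that 3 against 3 libraries can give). Without WT 3, the lowest library, the means were 892 TPM in Wtap KO and 795 TPM in WT, a ratio of 1.12. Without Igtp the sums were 474, 473 and 474 TPM in Wtap KO, against 450, 431 and 246 TPM in WT. The 7 GBP genes did not overlap either (ratio 1.31, exact permutation p = 0.1), while the 3 IRG genes did (ratio 1.3, exact permutation p = 0.2). These gaps are in TPM, where reads on short transcripts weigh more. One such transcript is Gbp4-203 (709 bases), at a mean of 68.5 TPM in Wtap KO and 39.7 TPM in WT. The 10 members alone were not summed in CPM, so the separation of their sum is shown in TPM only. In CPM the GBP or IRG genes of each chromosome were summed with other family genes, a different set, and these sums overlapped between groups.

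Of 19 listed genes of the family that were not among the 10, 17 passed the filter, 3 rose and 0 fell, with a median log2 fold change of -0.05. Over all genes tested 5.75% were called higher and 3.49% lower. At an unadjusted p under 0.05 edgeR gave 5 relatives higher and 2 lower. DESeq2 called 4 higher and 2 lower, where it called 14.0% of all genes. Groups did not overlap in 6 of the 17, near the share of 32.7% over all genes. F830016B08Rik, an IRG family gene next to Iigp1, was at 14.1, 13.9 and 10.6 CPM in Wtap KO, against 6.42, 5.59 and 3.09 CPM in WT (log2 fold change 1.35 ± 0.26, adjusted p = 0.0185). Gm5431, next to Irgm1, was at 5.95, 6.48 and 4.88 CPM in Wtap KO, against 3.49, 2.42 and 2.67 CPM in WT (1.01 ± 0.21, adjusted p = 0.0219). Ifi47, an effector IRG also called Irgd, was at 432, 431 and 415 CPM in Wtap KO, against 259, 363 and 272 CPM in WT (0.52 ± 0.14, adjusted p = 0.0485). In these 3 genes each Wtap KO library exceeded each WT library.

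Other relatives lay apart without passing. Gm12250, the effector Irgb10, lay above WT in all Wtap KO libraries (log2 fold change 0.76 ± 0.23, adjusted p = 0.0779), and so did Gbp2b, at under 1 CPM in every library (1.08 ± 0.39, adjusted p = 0.122). The near-identical pair of effector IRG genes Tgtp1 and Tgtp2 had log2 fold changes of -0.89 ± 0.27 (adjusted p = 0.0811) and -0.58 ± 0.17 (adjusted p = 0.0668), with Tgtp2 lower in all Wtap KO libraries. The remaining relatives that were tested had log2 fold changes of -0.59 (Gbp10), -0.42 (Gm4841), -0.40 (Gm4951), -0.36 (Gm12185), -0.25 (Gbp11), -0.12 (Irgm2), -0.05 (9930111J21Rik2), -0.02 (Gbp8), 0.13 (Irgq) and 0.18 (9930111J21Rik1). Their groups overlapped in every case. Without WT 3 the test called 5 relatives lower, Gbp10, Tgtp1, Tgtp2, Gm4951 and Gm4841, and 2 higher, against 1 higher without WT 2 and 0 higher without Wtap KO 1 or Wtap KO 2.

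**Figure D2:**
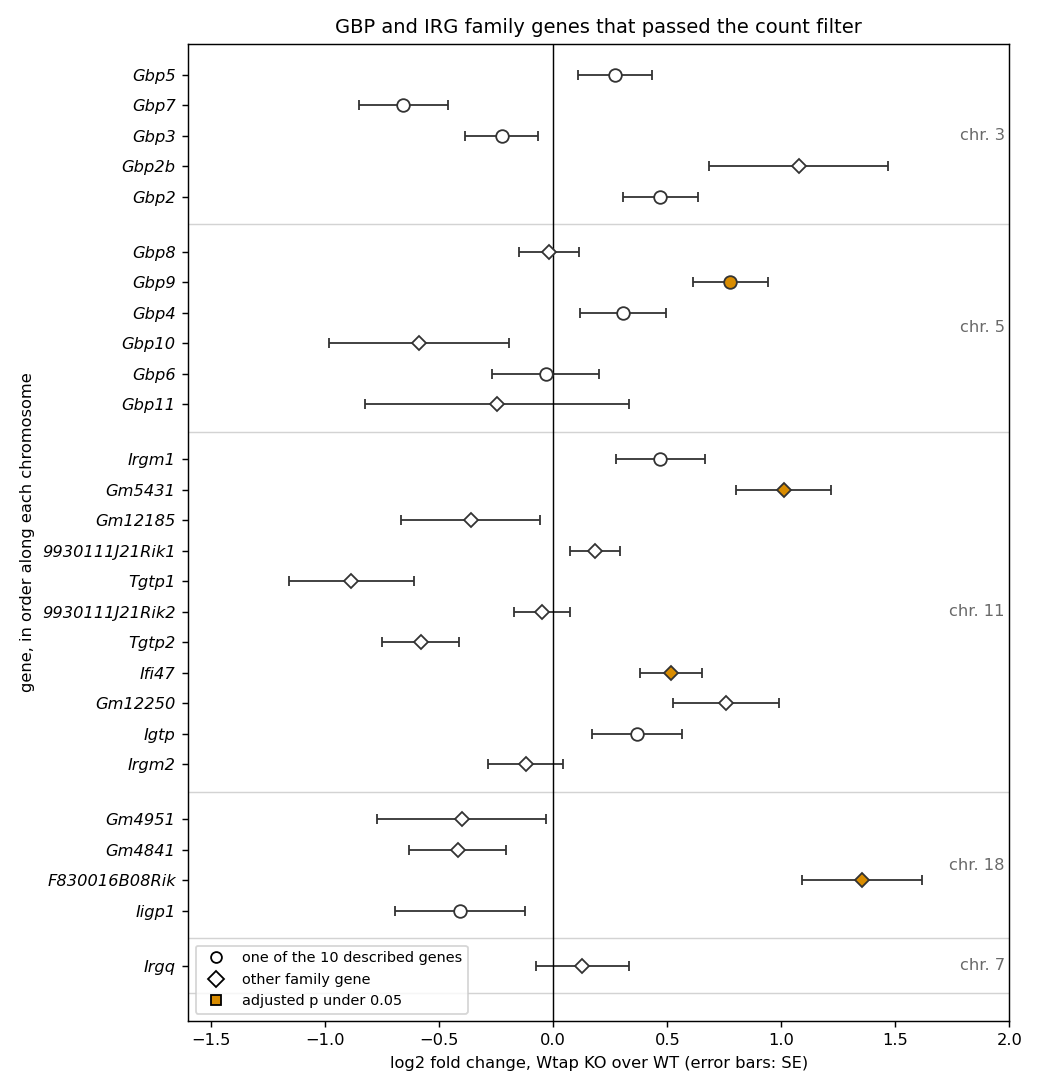
Log2 fold change (Wtap KO over WT, horizontal axis, with SE) of the 27 GBP and IRG family genes that passed the filter, in their order along each chromosome from top to bottom. Circles are the 10 members, diamonds are their relatives, and orange marks an adjusted p under 0.05, which Gbp9, Gm5431, Ifi47 and F830016B08Rik reached. Genes on both sides of 0 occur in each of the clusters on chromosomes 3, 5, 11 and 18.

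Genes with log2 fold changes of opposite sign sat side by side in each cluster, and none of the sums over a cluster passed. Summed counts gave log2 fold changes of 0.06 ± 0.17 for the GBP genes of chromosome 3 (adjusted p = 0.870) and 0.24 ± 0.19 for those of chromosome 5 (adjusted p = 0.482). The IRG sums gave 0.04 ± 0.14 on chromosome 11 (adjusted p = 0.893) and -0.31 ± 0.29 on chromosome 18 (adjusted p = 0.548). Without WT 3 the sum on chromosome 18 was called lower (-0.61, adjusted p = 0.0165, in a range of 0.0165 to 0.879 over 20 alternatives), and those on chromosomes 3 and 11 turned to -0.12 and -0.10.

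Ratios of 2 genes within a library do not depend on the scaling between libraries. They were picked after the values were seen and are given with no test. The CPM ratio of Gbp9 to Gbp7 was 1.74, 1.85 and 1.67 in Wtap KO, against 0.608, 0.673 and 0.686 in WT. The ratio of Igtp to its neighbour Irgm2 was 4.90, 5.0 and 4.53 in Wtap KO, against 3.22, 3.73 and 3.30 in WT. Gbp9 to Gbp8 stood at 2.31, 2.44 and 2.03 in Wtap KO, against 1.44, 1.25 and 1.15 in WT. WT 3, low in single genes, lay with WT 1 and WT 2 in all 3 ratios.

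Annotated transcripts other than full coding ones carried much of the signal of some members. Of the counts of Gbp9, 92.7%, 95.5% and 84.9% in Wtap KO, against 93.9%, 94.9% and 93.0% in WT, lay on Gbp9-203, a transcript that retains the seventh intron and is annotated as noncoding. The share overlapped between groups, so the rise of Gbp9 was mostly one of Gbp9-203, at 23.4, 23.9 and 22.6 TPM in Wtap KO, against 16.8, 14.0 and 9.95 TPM in WT. The coding transcript Gbp9-201 was at 2.02, 1.23 and 4.63 TPM in Wtap KO, against 1.2, 0.844 and 0.820 TPM in WT. It too was higher in all Wtap KO libraries, and with coding transcripts alone Gbp9 had a log2 fold change of 1.38 ± 0.43 (adjusted p = 0.0790).

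In Gbp4 the makeup differed between the groups. Gbp4-202, annotated as a target of nonsense-mediated decay, held 74.9%, 75.7% and 72.6% of the counts in Wtap KO, against 82.3%, 82.8% and 78.4% in WT. The share was lower in all Wtap KO libraries, and that of the short coding transcript Gbp4-203 was higher, at 13.6%, 13.2% and 11.6% in Wtap KO against 8.89%, 10.2% and 8.75% in WT. Summed over its coding transcripts, Gbp4 was at 62.6, 62.3 and 75.7 CPM in Wtap KO, against 39.3, 37.9 and 29.4 CPM in WT, with the groups apart. With coding transcripts alone it passed the test, at a log2 fold change of 0.90 ± 0.15 (adjusted p = 0.0121, in a range of 0.0121 to 0.597 over 20 alternatives), where 10.4% of 12325 genes were called. Gbp4-202 (4509 bases) and the full coding Gbp4-201 (4538 bases) differ only in where the second exon ends, so the split between them rests on the reads that cross that junction, and the tables give no error for it.

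In Igtp the shares of some isoforms, though not all, parted between the groups. The full transcript Igtp-201, with 3 exons, held 60.0%, 67.9% and 72.6% of the counts in Wtap KO, against 88.8%, 79.1% and 75.6% in WT, lower in all Wtap KO libraries. At 266, 275 and 256 TPM in Wtap KO, against 271, 307 and 158 TPM in WT, its own level overlapped. The 4-exon coding transcripts, which splice out a stretch inside the last exon of Igtp-201, were higher in all Wtap KO libraries. Igtp-203 was at 120, 90.6 and 58.8 TPM in Wtap KO, against 23.3, 43.7 and 34.9 TPM in WT, and Igtp-202 at 80.7, 55.5 and 50.9 TPM in Wtap KO, against 15.4, 48.4 and 22.6 TPM in WT. As a share of the counts, Igtp-203 overlapped between groups, with Wtap KO 3 at 14.96% and WT 3 at 15.05%. The share of Igtp-202 was higher in all Wtap KO libraries.

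Gbp6 was split over 3 transcripts, of which the coding Gbp6-201 held 45.0%, 40.1% and 32.9% of the counts in Wtap KO, against 24.0%, 34.0% and 29.0% in WT. These shares overlapped. For Irgm1, the 2-exon Irgm1-202 was at 83.6, 86.8 and 68.4 TPM in Wtap KO, against 63.0, 55.1 and 36.4 TPM in WT, and was the form that stood apart. Irgm1-201, with 3 exons, overlapped at 27.4, 24.7 and 27.5 TPM in Wtap KO, against 25.2, 29.5 and 12.9 TPM in WT. Transcript levels are described without a test, and those named here were chosen after their values were seen. How often groups do not overlap over all transcripts was not counted.

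**Figure D3:**
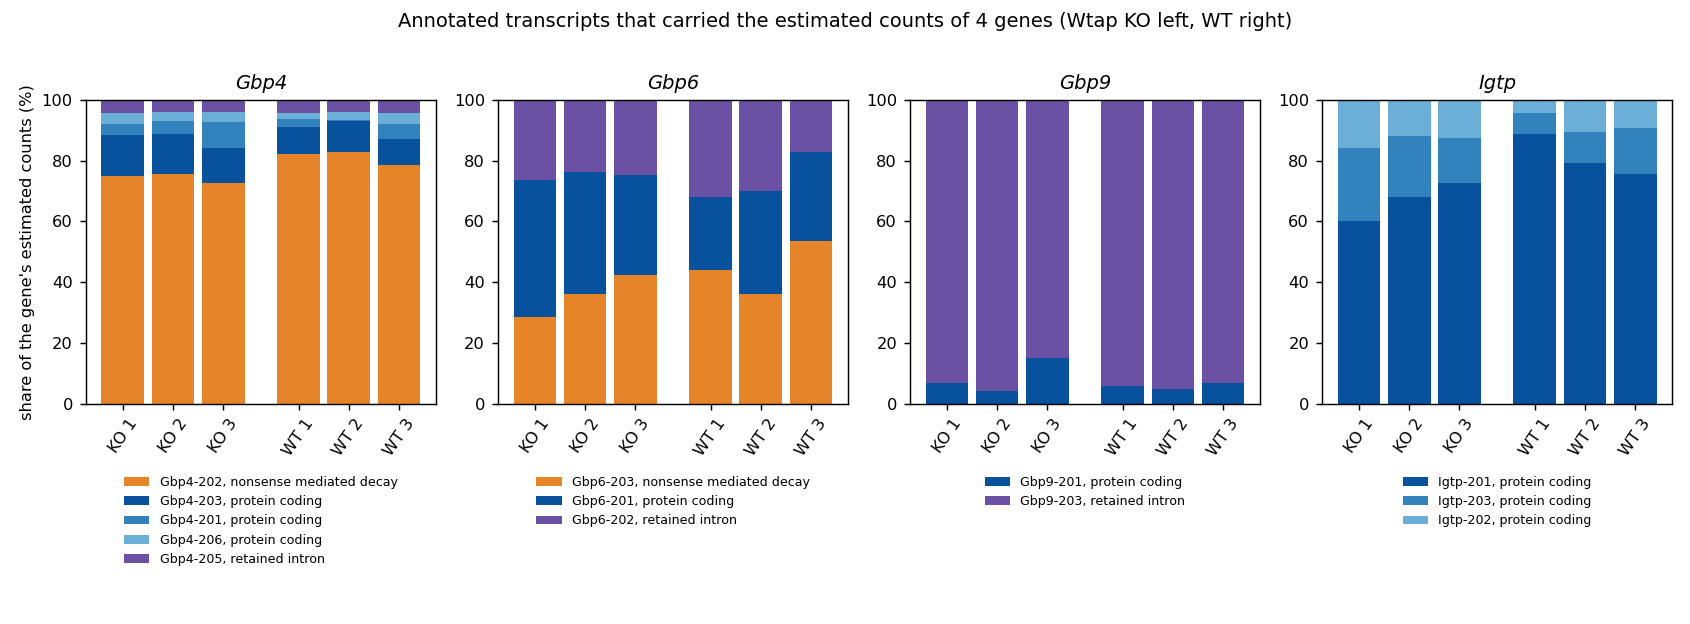
Share of a gene's estimated counts on each annotated transcript (vertical axis, percent), for Gbp4, Gbp6, Gbp9 and Igtp, with Wtap KO libraries on the left and WT libraries on the right of each panel. Blue tones are coding transcripts, orange is nonsense-mediated decay and purple is a retained intron, and transcripts with a mean share under 1% are left out. The orange share of Gbp4 and the share of Igtp-201 were lower in all Wtap KO libraries.

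The family is built of near copies, so the split of reads between genes is uncertain for some members. Of the distinct 31-base words in the transcripts of a member, those also found in another gene made up 74.3% for Gbp6, 18.3% for Gbp9, 15.9% for Igtp, 14.9% for Gbp4 and 14.7% for Gbp7. They made up 6.92% for Iigp1, 5.64% for Gbp3, 4.85% for Gbp2, 3.10% for Gbp5 and 2.88% for Irgm1. Gbp6 shared most, with 67.8% of its words in the overlapping locus Gm43302 and 51.4% in Gbp10. Summed with these, Gbp6 had a log2 fold change of -0.01 ± 0.25 (adjusted p = 0.988), and Igtp summed with Irgm2, with which it overlaps on the same strand, had 0.27 ± 0.19 (adjusted p = 0.411). Gbp7 and the overlapping Gm43802 gave -0.66 ± 0.19 (adjusted p = 0.0696), the value of Gbp7 alone, and Gbp4, Gbp8 and Gbp9 overlap on the same strand. Of the relatives called, Gm5431 shared 47.2% of its words, F830016B08Rik 7.74% and Ifi47 6.37%. Gm5431 had 36.7% in common with 9930111J21Rik1, which averaged 82.8 CPM in Wtap KO and 72.9 CPM in WT. Gm5431 was not fitted in a sum with its near copies alone, so its split of reads is uncertain too. Of the relatives called lower without WT 3, Tgtp2 shared 90.5%, Gbp10 89.8%, Tgtp1 84.4%, Gm4841 20.5% and Gm4951 14.0%. Tgtp1 and Tgtp2 shared most with each other and were not fitted as a sum of that pair, so they are hardly separate results.

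The signalling genes that lead from interferon-gamma to the GTPases passed in 0 of 11 cases in either direction, by edgeR, with a median log2 fold change of 0.20. At an unadjusted p under 0.05 edgeR gave 2 lower and 0 higher, and DESeq2 called 1 lower. The ligand gene Ifng was low, at 0.524, 0.540 and 0.995 CPM in Wtap KO, against 0.552, 0.936 and 0.354 CPM in WT. Its receptor chains had log2 fold changes of -0.32 ± 0.16 for Ifngr1 (adjusted p = 0.255) and 0.42 ± 0.21 for Ifngr2 (adjusted p = 0.241). Irf1, a factor induced by the cytokine, had a log2 fold change of 0.23 ± 0.12 (adjusted p = 0.256).

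Of other interferon-gamma-inducible genes, 4 of 17 tested passed, all higher, with a median of 0.42. Nlrc5, the activator of MHC class I genes, rose (log2 fold change 0.81, adjusted p = 0.0116), as did the tryptophan-tRNA ligase Wars (0.78, 0.0290), Parp14 (0.49, 0.0258) and Xaf1 (0.58, 0.0498). Of type I signalling genes 4 of 8 tested passed, all higher, with a median of 0.46. They were Stat2 (1.12 ± 0.12, adjusted p = 0.00196), the receptor chain Ifnar1 (0.62 ± 0.09, adjusted p = 0.00734), the feedback inhibitor Usp18 (1.5 ± 0.14, adjusted p = 0.00120) and Irf7 (0.79 ± 0.19, adjusted p = 0.0341). Without Wtap KO 2 this list had 2 higher calls, and 3 or 4 without any other single library. Ifnb1 was listed at 0 in all 6 libraries.

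Of 23 antiviral interferon-stimulated genes 9 passed, all higher, with a median of 0.58. Among them were the nucleic acid sensor Zbp1 (0.68, adjusted p = 0.0118), the RNA editor Adar (0.59, 0.0438), Trim25 (0.60, 0.00690) and Rtp4 (1.95, 0.00727). The list was not raised throughout. DESeq2 called 10 of it higher and 2 lower, and edgeR gave 15 higher and 2 lower at an unadjusted p under 0.05. With WT 3 left out, edgeR called 7 higher and 2 lower. The antiviral list had 3 higher calls without Wtap KO 1, 2 without Wtap KO 2 and 5 without WT 2, and the other interferon-gamma-inducible genes had 0 without Wtap KO 1 or Wtap KO 2 and 2 without Wtap KO 3. The dynamin-like Mx1 rose (1.5 ± 0.24, adjusted p = 0.00881) and the giant GTPase gene Gm1966 fell by 0.65 on the log2 scale (adjusted p = 0.0146), 1 up and 1 down of 5 tested. The lower call was lost without WT 2, Wtap KO 1 or Wtap KO 2. The median over this list was 0.43.

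**Figure D4:**
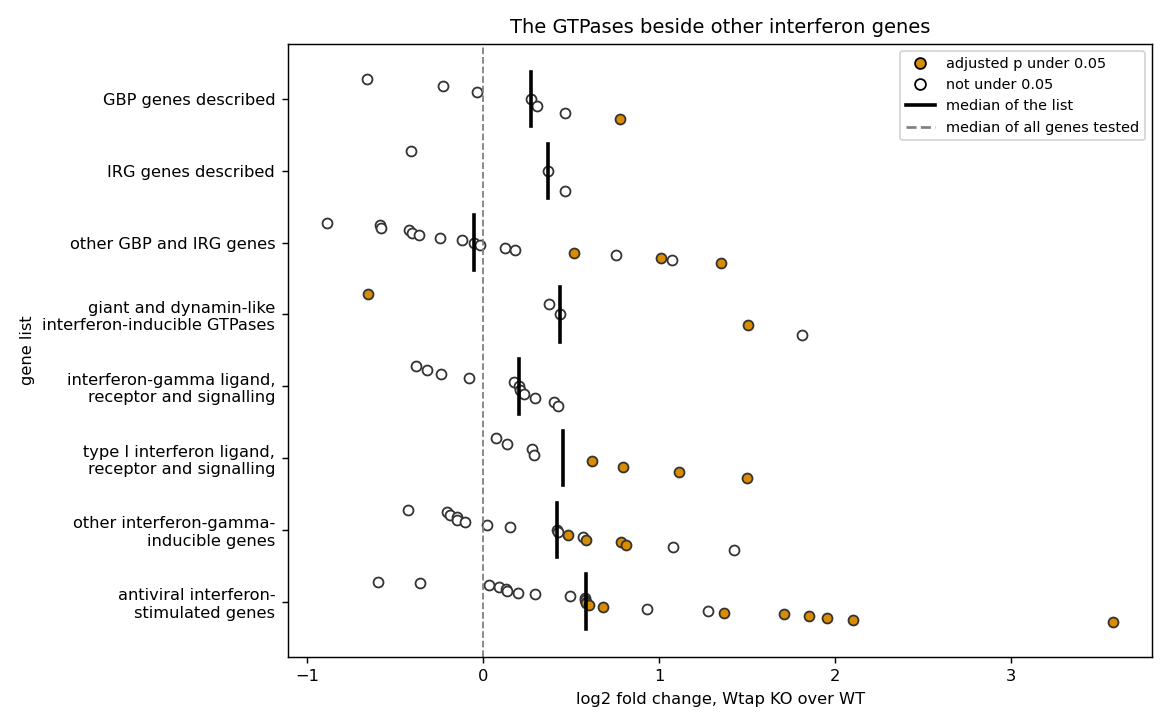
Log2 fold change (Wtap KO over WT, horizontal axis) of each tested gene in 8 lists of interferon genes, with the median of a list as a black bar and that of all genes tested as a dashed line. Orange marks an adjusted p under 0.05. The members span values from -0.66 (Gbp7) to 0.78 (Gbp9), and the antiviral list has 9 orange points of 23.

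Of 13 genes for the conjugation of ATG8 proteins and for loading GBP and IRG proteins on membranes, 2 rose and 1 fell, with a median of -0.21. At an unadjusted p under 0.05 edgeR gave 2 higher and 6 lower, and DESeq2 called 2 higher and 3 lower. The ubiquitin ligases Traf6 (log2 fold change 0.64, adjusted p = 0.0102) and Trim21 (0.54, 0.0171) rose, and Gabarapl2, an ATG8 protein that recruits the system to vacuoles, fell by 0.83 on the log2 scale (adjusted p = 0.0310). The higher calls numbered 0 without Wtap KO 1 or Wtap KO 2 and 1 without Wtap KO 3, and the lower calls 3 without WT 1 and 0 without WT 2 or any 1 Wtap KO library. With an offset for GC content 4 were called lower, and with limma 0. In the inflammasome list 1 of 5 tested rose, Casp4, the caspase that senses lipopolysaccharide (0.76, adjusted p = 0.0495). The list had 1 higher call in 8 of 20 alternatives and 0 in the other 12, among them leaving out any library but WT 3, and RLE or upper-quartile normalization. Of the enzymes that attach the prenyl anchors of several GBP proteins edgeR and DESeq2 called 0 of 5, with 0 at an unadjusted p under 0.05.

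The genes with the profile most like that of the members were sought among 9151 protein-coding genes averaging 5 CPM or more, by Pearson correlation over the 6 libraries with the mean z-score of the members. They were Akr1c13 (r = 0.993), Zfp560 (0.992), Gm43302 (0.989), Mdfic (0.988) and Galc (0.984). The score itself was 0.13, 0.30 and 0.26 in Wtap KO, against 0.50, 0.34 and -1.53 in WT, with WT 3 far below the other 5. Akr1c13, for instance, was at 10.2, 10.8 and 10.9 CPM in Wtap KO, against 11.7, 10.0 and 3.91 CPM in WT. Gm43302 shares sequence with Gbp6, and the 6 points share libraries and scaling with the members.

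Markers of other cells were checked, since GBP and IRG genes are also expressed outside T cells. The CD4 T cell list was high in every library, at a summed 2769 to 3077 TPM in Wtap KO against 3290 to 3679 TPM in WT, with Cd3g and Cd4 lower in Wtap KO among 9 tested. Of 9 dendritic cell markers tested of 12, 3 rose (H2-Aa, Cd74 and Batf3), with a summed 47.1 to 63.7 TPM in Wtap KO, against 12.4 to 39.1 TPM in WT, Cd209a at 0 throughout and Clec9a under 1 CPM. H2-Ab1 went the other way without passing, at 5.24, 6.19 and 4.93 CPM in Wtap KO, against 20.8, 5.66 and 4.42 CPM in WT. Its log2 fold change was -0.92 ± 0.55 (edgeR, adjusted p = 0.349), and the other tested markers of the list had positive ones. The CD8 T cell list summed to 11.4 to 13.9 TPM in Wtap KO, against 7.18 to 7.79 TPM in WT, with Cd8b1 higher of 2 tested. NK cell markers, with 0 of 4 called by edgeR and 1 by DESeq2, ran from 14.2 to 21.1 TPM in Wtap KO, against 5.80 to 15.7 TPM in WT. The macrophage list, with 0 of 3 called by edgeR or DESeq2 and C1qa and C1qb at 0, overlapped between groups, at 201 to 282 TPM in Wtap KO against 101 to 233 TPM in WT. Ly6c2 was its highest gene, and Lyz2 stayed under 3 CPM. The B cell list summed to 331 to 531 TPM in Wtap KO, against 405 to 573 TPM in WT, nearly all of it Ighm, and without Ighm to 3.39 to 4.86 TPM in Wtap KO, against 2.03 to 3.64 TPM in WT. Of its 5 genes tested Blk passed, at under 1 CPM, though not without WT 3, and granulocyte markers summed to under 1 TPM in every library. The part of these cells in the levels of the members was not tested.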

How the data were processed

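RNA from 6 libraries was sequenced as pairs of 50 bp with a Lexogen SENSE kit, per the labels' protocols. The authors deposited, per library, estimated counts and TPM values for 142647 transcripts. The tools named are kallisto 0.44.0 and DESeq2, on GRCm38 (mm10), per the submitters' processing notes. Since kallisto splits reads that match several transcripts, its estimated counts, as deposited, include fractions, and for near copies the split has an error of unknown size. TPM values, deposited beside them, give each count per effective length on a scale common to all libraries. Which annotation release and strand setting were used, and for what DESeq2 served, is not given in the sources used here.

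Genes were assigned from GENCODE M21 (GRCm38) by transcript identifier, version stripped. This placed 99.1% of transcripts, with 99.71% to 99.75% of a library's counts, and left out 1218. Estimated counts were summed per gene, rounded and tested by the robust quasi-likelihood fit of edgeR 4.0.16 in R 4.3.3, after filterByExpr and TMM, with genotype as the only term. Benjamini-Hochberg adjustment ran over all tested genes, and 0.05 was the threshold. SE is the absolute log2 fold change over the square root of F. The test was tried on simulated counts. DESeq2 1.42.0 and limma 3.58.1 on log2(TPM + 1) for genes of at least 1 TPM were among the alternatives.

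The members, gene lists and tests were chosen with earlier results of these data known. All 10 members, every relative that passed the filter and Wtap are named. Of each list at most 4 called genes are named, those with the largest mean CPM, with the ligand, receptor chains and Irf1 of the interferon-gamma list; 1 further gene of that list, counted in it, is not reported here. Likeness names 5 genes. Same-numbered libraries of the groups did not deviate together.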

Additional observations from a re-analysis of the deposited data

How the results depend on the processing

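Each member and count was recomputed under 20 alternatives, or 21 where near copies were summed, a setting chosen after seeing the data. The direction held for every member but Gbp6, whose log2 fold change of -0.03 turned to 0.044 with length-scaled counts, 0.16 with limma on log2(TPM + 0.1), 0.15 with limma on log2(TPM + 1) with or without its filter, 0.087 with an offset for GC content and 0.41 with coding transcripts alone. The cause was not tested. Gbp3, Gbp5, Igtp and Irgm1 stayed uncalled throughout.

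Genes called numbered 1626, against 2494 with DESeq2, 868 and 828 with limma at a pseudocount of 1 and 0.1, and 309 with limma and no filter. Members called numbered 1, against 2 with DESeq2 (1 lower), 2 with the GC offset (1 lower), 3 with no filter on low counts (2 higher and 1 lower) and 0 with limma and no filter. With no filter, which tests more genes, Gbp2 (log2 fold change 0.47, adjusted p = 0.0482) and Gbp7 (-0.66, adjusted p = 0.0430) passed. Gbp7 also passed with DESeq2 (-0.67) and the GC offset (-0.52), and Gbp4 with coding transcripts alone (0.90). Gbp9 was lost with limma and no filter (0.81, adjusted p = 0.112) and with coding transcripts alone (1.38, adjusted p = 0.0790). Genes called over the 8 pathway lists, relatives not counted, numbered 23, against 4 with limma and no filter.

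Leaving out 1 library at a time gave 361 to 2282 genes called (565 without WT 2, 397, 361 and 704 without Wtap KO 1, 2 and 3), 0 to 3 members called, 0 to 2 higher and 0 to 2 lower, and 5 to 25 pathway genes. Log2 fold changes ranged from 0.29 to 0.58 for Gbp2, -0.36 to -0.13 for Gbp3, 0.09 to 0.43 for Gbp4, 0.11 to 0.39 for Gbp5, -0.29 to 0.19 for Gbp6, -0.85 to -0.42 for Gbp7, 0.61 to 0.95 for Gbp9, 0.26 to 0.60 for Irgm1, 0.17 to 0.58 for Igtp and -0.72 to -0.23 for Iigp1. Gbp6 turned to 0.19 without WT 1, 0.03 without WT 2 and 0.02 without Wtap KO 1. Cluster sums ranged from -0.12 to 0.21 on chromosome 3, 0.02 to 0.40 on chromosome 5, -0.10 to 0.15 on chromosome 11 and -0.61 to -0.12 on chromosome 18. The difference in summed member TPM was 208, from 96.7 to 281, and 98.5 without Igtp.

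Same-numbered libraries had correlations of deviations of -0.095, 0.053 and 0.130, and not every library correlated best with its own number. A replicate block gave 1061 genes called, kept Gbp9 as the only member called (adjusted p = 0.0310) and turned Gbp6 to 0.029. The number of libraries, 3 per group, and the spread within WT limit what could be called.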
